A study of Homo sapiens with 94 samples.

Results

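IGFBP2 to IGFBP7 are 6 secreted binding proteins of the insulin-like growth factors, and IGF1R is the cell-surface receptor of these factors. The members were the 7 rows of the deposited table that carry these gene symbols, of 20239 genes in all, and each symbol had 1 row. They were measured by RNA-seq in 94 tumors grown under the skin of mice from NCI-H226, an established line of human pleural mesothelioma with a deletion of NF2, an inhibitor of YAP1 in the Hippo pathway. Female CB17 SCID mice, which lack mature T and B cells, received a single oral dose of K-975, which binds covalently in the palmitoylation pocket of the TEAD transcription factors and blocks their activation by YAP1. The doses were 30, 100 and 200 mg/kg. Controls received the vehicle (EtOH, Solutol and injectable glucose) or no treatment. Tumors were taken in 3 studies, at 1 h, at 3-6 h and at 24 h, so time after the dose and study cannot be told apart. Each group had 5 tumors, except 4 with vehicle at 24 h, and 10 in 2 cage groups of 5 for vehicle and for each dose at 3-6 h. Which of those cage groups belong to 3 h and which to 6 h is not in the labels. In the 1 h and 24 h studies each treatment had a single cage group, and effects of cage and of treatment cannot be told apart there. The dosing volume was 20 mL/kg for vehicle and the highest dose and 10 mL/kg for the lower doses. Each tumor came from its own mouse, and p-values measure the spread between tumors of 1 cell line.

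Values are FPKM, fragment numbers divided by transcript length and library total, which hold no counts, so the depth of each library and counting intervals are unknown. A total of 91 libraries held 11335 to 11654 genes at an FPKM of at least 1. The other 3 held 701 (30 mg/kg at 24 h), 7186 (100 mg/kg at 24 h) and 8524 (200 mg/kg at 1 h), are called shallow here, and were left out of the fit. In the library of 701 genes all 7 members were listed at 0. Values with all 94 libraries are given beside the main results that these libraries touch. All 7 members passed the filter on low values, which asked for an FPKM of 1 or more in 4 or more libraries, as did 13024 genes in all. Differences are in log2(FPKM + 1), which understates changes of low genes, and a gene was called at a limma adjusted p under 0.05 over all genes tested.

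As background, IGF1 and IGF2 activate IGF1R, a receptor tyrosine kinase that signals through PI3K and AKT to growth and survival. The binding proteins hold the ligands in the extracellular space, which limits their access to the receptor or extends their life, and several also act on cells without a ligand. IGFBP7 binds these ligands weakly and is counted as a related protein. IGFBP3, the main carrier of the ligands in blood, is a classical target of TEAD transcription. It is in neither of the study's own lists of genes raised or lowered by YAP1 and TEAD in other datasets. YAP1 binds TEAD proteins on DNA, and NF2 loss releases YAP1 from Hippo control in many mesotheliomas.

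The members fell into an abundant and a scarce class. Over the 91 tumors the median level was 189 FPKM for IGFBP4, 167 FPKM for IGF1R, 143 FPKM for IGFBP6 and 88.1 FPKM for IGFBP3. For IGFBP2, a carrier with preference for IGF2, it was 11.4 FPKM, and it was 6.72 FPKM for IGFBP7 and 4.64 FPKM for IGFBP5, an IGF carrier that binds the extracellular matrix. FPKM are per length and can be ranked between genes, but libraries were enriched with capture probes, so a level also depends on how well a gene is captured. Neighbours within each class were not cleanly ordered: IGFBP4 lay above IGF1R in 70 of 91 tumors, IGF1R above IGFBP6 in 76, IGFBP6 above IGFBP3 in 77, IGFBP2 above IGFBP7 in 67 and IGFBP7 above IGFBP5 in 58. IGFBP3 lay above IGFBP2 in all 91.

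**Figure D1:**
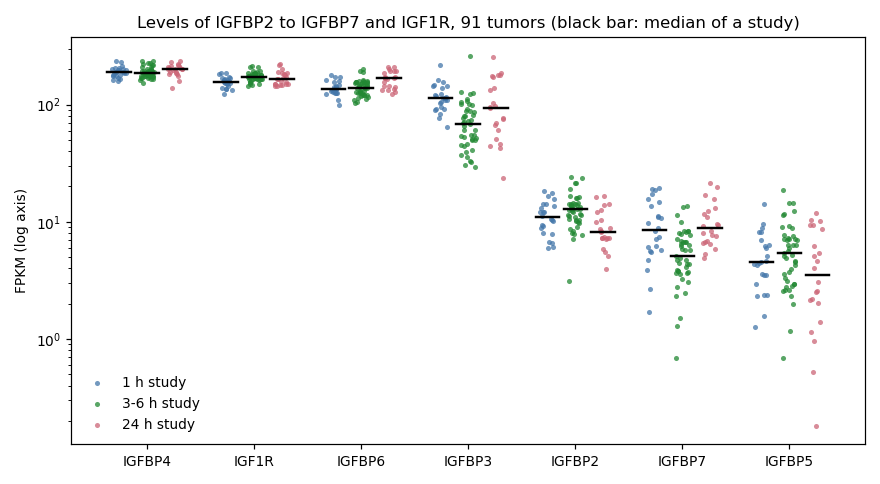
FPKM on a log axis of the 7 members in the 91 tumors of the fit, 1 point per tumor, colored by study, with the median of each study as a black bar. IGFBP4, IGF1R and IGFBP6 form narrow bands with medians of 189, 167 and 143 FPKM, whereas IGFBP3 and the 3 scarce members spread widely.

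The spread between tumors of a group also separated the members. On the log2 scale the SD within groups was 0.15 for IGF1R and 0.15 for IGFBP4, and 9.43% and 10.47% of the genes tested had a smaller one. It was 0.20 for IGFBP6, against a median of 0.29 over the genes tested. IGFBP2 had 0.48, IGFBP3 0.51, IGFBP7 0.67 and IGFBP5 0.79, and 98.7% of genes varied less than IGFBP5. With all 94 libraries the SD of the 7 members was 0.68 to 0.88, so for IGFBP4, IGFBP6 and IGF1R the 3 shallow libraries made up most of the spread.

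IGFBP3 (ENSG00000146674.14, chromosome 7, 45912245 to 45921274 of GRCh38, minus strand) fell 24 h after the dose. In the 4 vehicle tumors it was at 177, 170.2, 138 and 187 FPKM. In the 5 tumors given 200 mg/kg it was at 23.7, 94.7, 44.2, 46.2 and 51.1 FPKM. The highest of the 5 treated tumors stayed under the lowest vehicle tumor. The mean was 168 ± 21.5 FPKM (SD, n = 4) in vehicle tumors and 52.0 ± 26.1 FPKM (SD, n = 5) at the highest dose, which is 30.9% of the vehicle mean. The log2 difference was -1.80 (SE 0.33, limma adjusted p = 0.00020). At this dose and time IGFBP3 was the 1 member called of 7, against 7.39% of the genes tested. In the fit with all 94 libraries the difference was the same, since neither group holds a shallow library, but its SE was 0.53 and its adjusted p 0.51, and 0 genes were called there.

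Lower doses lowered the values as well but did not pass the threshold. In the 4 tumors at 100 mg/kg IGFBP3 was at 97.4, 60.2, 42.5 and 93.0 FPKM, and the shallow library of that group had 80.9 FPKM. The log2 difference was -1.25 (SE 0.35, limma adjusted p = 0.0503), and -1.21 (adjusted p = 0.459) with all 94 libraries. It passed without replicate 1 (adjusted p = 0.0425) or replicate 4 (0.0294) of that dose. In the 4 tumors at 30 mg/kg it was at 77.4, 74.7, 66.6 and 69.8 FPKM, the tightest group of the study, with a log2 difference of -1.20 (SE 0.35, limma adjusted p = 0.173). With the shallow library, listed at 0, this difference was -2.44 (adjusted p = 0.0411). In a fit of the 2 groups alone it was -1.20 (adjusted p = 0.0016). At each of the 3 doses no treated tumor reached the lowest vehicle value. The 3 doses share the vehicle tumors, and their own values overlap: the range at 200 mg/kg, 23.7 to 94.7 FPKM, holds all 4 tumors at 30 mg/kg and 3 of the 4 at 100 mg/kg.

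The number of members without overlap between dose and vehicle at 24 h was 3 of 7 at 30 mg/kg (IGFBP3 lower, IGFBP5 and IGF1R higher), 2 at 100 mg/kg and 2 at 200 mg/kg (IGFBP3 lower, IGFBP6 higher at each). Among the genes tested, 6.73%, 7.16% and 7.44% did not overlap, in either direction. Of the 7 members, 0 were called at 30 mg/kg, against 0.0384% of the genes tested, and 0 at 100 mg/kg, against 1.11%. At an unadjusted p under 0.05 there were 4 members at each of the 3 doses, IGFBP3, IGFBP5, IGFBP6 and IGF1R, against 10%, 14.1% and 21.9% of the genes tested at 30, 100 and 200 mg/kg. Over vehicle and the 3 doses, the slope of IGFBP3 was -0.72 on the log2 scale per 100 mg/kg (SE 0.15, limma adjusted p = 0.0014). It was the 1 member of 7 called for this slope, against 5.61% of the genes tested. The slope takes in the vehicle tumors, and differences from vehicle were -1.20, -1.25 and -1.80 at 30, 100 and 200 mg/kg. At an unadjusted p under 0.05 there were 3 members (IGFBP3, IGFBP5 and IGFBP6), against 2602 of the 13024 genes tested. With all 94 libraries the slope of IGFBP3 was -0.44 (adjusted p = 0.486).

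**Figure D2:**
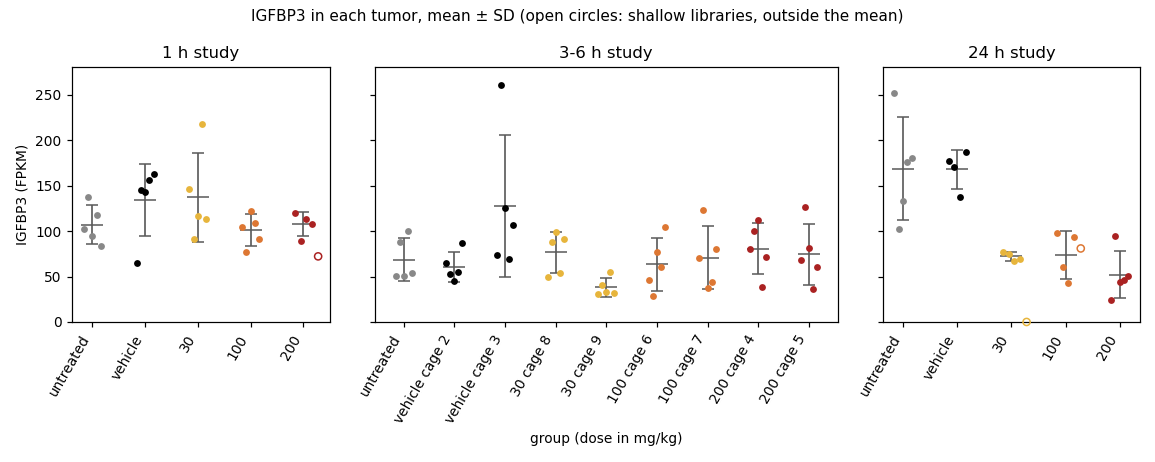
IGFBP3 in FPKM in each tumor by group, in 3 panels for the 1 h, 3-6 h and 24 h studies. Bars give the mean ± SD of the libraries of the fit, and open circles are the shallow libraries. At 24 h the vehicle tumors sit at 138 to 187 FPKM and the tumors given 200 mg/kg at 23.7 to 94.7 FPKM. At 1 h and 3-6 h each dose overlaps vehicle. At 1 h, 90, 108 and 177 of the 13024 genes tested did not overlap vehicle at 30, 100 and 200 mg/kg. At 3-6 h, with both cage groups pooled, each dose overlapped vehicle for all 13024 genes tested.

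In the untreated tumors at 24 h IGFBP3 was at 252, 102, 133, 176 and 180.1 FPKM, all above every tumor given K-975 in that study. Vehicle and untreated tumors differed by 0.05 on the log2 scale (SE 0.33, limma adjusted p = 1). Against untreated tumors the difference at 100 mg/kg was -1.20 (adjusted p = 0.0325). Of the 7 members, 0 were called between vehicle and untreated tumors in any of the 3 studies, against 0% of the genes tested in each. At an unadjusted p under 0.05 there was 1 member at 1 h (IGFBP7, -0.89) and 0 at 3-6 h and at 24 h, against 4.72%, 4.83% and 4.2% of the genes tested.

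The level of IGFBP3 in control tumors differed between studies, which bears on any comparison of times. With vehicle or no treatment it ranged from 64.7 to 163 FPKM (median 128, n = 10) at 1 h. It was 44.8 to 261 FPKM (median 69.4, n = 15) at 3-6 h and 102 to 252 FPKM (median 176, n = 9) at 24 h. The tumors given 200 mg/kg at 24 h, with a median of 46.2 FPKM, thus overlap the control tumors of the 3-6 h study. This difference between studies was not tested, and study, cohort and time cannot be told apart.

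At 3-6 h no member was called. IGFBP3 ranged from 44.8 to 261 FPKM (median 71.6, n = 10) with vehicle, 30.3 to 98.6 (median 52.1, n = 10) at 30 mg/kg, 29.1 to 123 (median 65.3, n = 10) at 100 mg/kg and 35.9 to 127 (median 75.8, n = 10) at 200 mg/kg. The groups overlap, and at each dose 0% of the genes tested were without overlap with vehicle. The lowest dose had the lowest median. Log2 differences were -0.63 (SE 0.22), -0.41 (SE 0.22) and -0.17 (SE 0.22) for 30, 100 and 200 mg/kg (limma adjusted p = 0.463, 0.528 and 0.927). The background was 0.0154%, 0.43% and 0.0691% of the genes tested, and 1 member, IGFBP3 at 30 mg/kg, had an unadjusted p under 0.05, as did 7.03%, 10.3% and 7.23% of the genes tested. These values depend on the vehicle cage group. IGFBP3 was at 44.8 to 86.9 FPKM in vehicle cage group 2 and at 69.4 to 261 FPKM in vehicle cage group 3, a log2 difference of 0.91 (SE 0.31, limma adjusted p = 0.221). Against cage group 3 alone the difference at 30 mg/kg was -1.08 (adjusted p = 0.0425), and against cage group 2 alone the differences at 100 and 200 mg/kg turned to 0.047 and 0.28.

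Cage groups of the same dose also differed in their values. At 30 mg/kg IGFBP3 was at 50.0, 88.5, 98.6, 54.1 and 91.1 FPKM in cage group 8 and at 30.3, 40.6, 33.0, 55.3 and 32.2 FPKM in cage group 9. In cage group 9, 4 of 5 tumors lay below all tumors of cage group 8. The log2 difference was -0.96 (SE 0.31, limma adjusted p = 0.512), in a comparison added after the values had been seen. Of the 7 members, 0 were called between the cage groups of 200 mg/kg, of 100 mg/kg, of 30 mg/kg or of vehicle, against 0.0154%, 0.0461%, 0% and 0.322% of the genes tested. At an unadjusted p under 0.05 there were 1 (IGFBP6), 0, 2 (IGFBP3 and IGFBP6) and 1 (IGFBP3), against 7.1%, 7.49%, 6.37% and 9.95% of the genes tested.

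At 1 h each dose overlapped vehicle for all 7 members, as for most genes. Of the 13024 genes tested, 90, 108 and 177 did not overlap at 30, 100 and 200 mg/kg, in either direction. At these doses 0 members were called, against 0%, 0.00768% and 0% of the genes tested. IGFBP3 was at 64.7 to 163 FPKM with vehicle, 90.95 to 217 at 30 mg/kg, 76.5 to 123 at 100 mg/kg and 89.2 to 119.6 at 200 mg/kg, where the shallow library had 72.2 FPKM. Log2 differences of IGFBP3 were 0.03 (SE 0.31), -0.36 (SE 0.31) and -0.25 (SE 0.33). The 95% interval at 200 mg/kg ran from -0.91 to 0.41, and with all 94 libraries the difference was -0.37. At an unadjusted p under 0.05 there was 1 member, IGFBP4 at 100 mg/kg (0.19), against 4.38%, 4.98% and 3.32% of the genes tested at 30, 100 and 200 mg/kg.

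Whether the response to 200 mg/kg differed between studies was tested as a difference of differences. For IGFBP3 the 24 h effect less the 3-6 h effect came to -1.63 on the log2 scale (SE 0.40, limma adjusted p = 0.0177), the 1 member called of 7, against 1.72% of the genes tested. Without replicate 1 of 200 mg/kg at 24 h it was -1.38 (adjusted p = 0.088), and with all 94 libraries it was -1.63 (adjusted p = 1). At 24 h minus 1 h it was -1.55 (SE 0.47, adjusted p = 0.103), with 0 of 7 members called against 0.614% of the genes tested, and 2 members (IGFBP3 and IGFBP6) at an unadjusted p under 0.05, against 13.2% of the genes tested. Without replicate 2 of 200 mg/kg at 24 h it was -1.79 (adjusted p = 0.0241), and with all 94 libraries -1.43 (adjusted p = 0.951).

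The sequence before the start of IGFBP3 is shown beside that of CCN2 (CTGF), a secreted TEAD target with an IGF-binding domain that fell at the same dose and time. IGFBP5 and IGFBP6 are shown as the members whose window holds the letters searched. These are GGAATG, the core of the motif bound by TEAD proteins, on both strands. Each line gives the 250 bases before the RefSeq start (GRCh38.p14), 5′ to 3′ along the gene, with matches in capitals. The windows are chr7:45921273-45921522 (minus strand) for IGFBP3, chr2:216695550-216695799 (minus strand) for IGFBP5, chr12:53097417-53097666 (plus strand) for IGFBP6 and chr6:131951373-131951622 (minus strand) for CCN2.
IGFBP3: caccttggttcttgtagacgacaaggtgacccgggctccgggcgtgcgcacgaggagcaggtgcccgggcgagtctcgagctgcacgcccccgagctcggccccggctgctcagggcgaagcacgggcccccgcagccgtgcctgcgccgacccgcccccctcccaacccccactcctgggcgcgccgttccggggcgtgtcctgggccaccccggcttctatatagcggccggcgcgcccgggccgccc
IGFBP5: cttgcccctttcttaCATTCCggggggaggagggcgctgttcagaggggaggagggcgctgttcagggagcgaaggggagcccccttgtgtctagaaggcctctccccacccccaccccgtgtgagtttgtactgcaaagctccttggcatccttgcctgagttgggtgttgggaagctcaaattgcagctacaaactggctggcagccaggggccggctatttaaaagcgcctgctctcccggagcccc
IGFBP6: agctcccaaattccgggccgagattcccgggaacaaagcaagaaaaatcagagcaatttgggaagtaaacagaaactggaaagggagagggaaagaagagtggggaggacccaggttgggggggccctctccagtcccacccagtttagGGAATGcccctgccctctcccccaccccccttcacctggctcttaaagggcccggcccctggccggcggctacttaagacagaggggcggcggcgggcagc
CCN2: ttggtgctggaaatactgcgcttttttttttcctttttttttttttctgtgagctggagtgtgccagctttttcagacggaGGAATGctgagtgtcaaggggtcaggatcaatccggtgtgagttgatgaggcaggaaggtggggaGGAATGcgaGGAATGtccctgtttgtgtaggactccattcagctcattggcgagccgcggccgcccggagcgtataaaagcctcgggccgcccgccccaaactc
CCN2 held 3 matches on its own strand, starting 169, 104 and 95 bases before the start. IGFBP6 held 1 on its own strand, 101 bases before its RefSeq start. That start lies 222 bases downstream of the first base of IGFBP6 in the deposited table, so most of this window, the match included, lies within the gene as the table gives it. IGFBP5 held 1 on the opposite strand, 235 bases before the start. The windows of IGFBP3, IGFBP2 (3 starts), IGFBP4 and IGF1R held 0. In the GENCODE 29 annotation IGFBP3 begins further upstream, at base 45921874, so its window lies within the gene as annotated there. Among 35116 windows of this length, 11.9% held at least 1 match and 0.083% held at least 3. The window of IGFBP3 is 76.0% G and C and that of CCN2 53.2%, against a median of 58.0% over the windows. A match is a string of letters and no evidence of binding, and the missing match covers these 250 bases alone.

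IGFBP5 (ENSG00000115461.4, chromosome 2, 216672105 to 216695525) was the member with the next largest difference at 24 h, in the opposite direction, and did not pass the threshold. With vehicle it was at 2.20, 2.59, 0.963 and 1.15 FPKM. At 200 mg/kg it was at 11.96, 1.41, 4.02, 10.2 and 8.70 FPKM. In 4 of 5 treated tumors IGFBP5 lay above all vehicle tumors, and replicate 2 lay among them. The log2 difference was 1.41 (SE 0.52, limma adjusted p = 0.0778), and 1.80 (adjusted p = 0.0166) without replicate 2. That tumor also had the highest IGFBP3 of its group. At 100 mg/kg the 4 tumors had 2.13, 9.37, 5.10 and 5.41 FPKM and at 30 mg/kg 4.64, 3.05, 10.3 and 6.19 FPKM, with differences of 1.18 (adjusted p = 0.297) and 1.31 (adjusted p = 0.394). The shallow library of each group was at 0, and with all 94 libraries the differences were 0.66 and 0.77. Untreated tumors had 0.521, 9.44, 2.51, 0.183 and 2.04 FPKM, so replicate 2 without any treatment reached the level of the treated tumors.

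IGFBP6, a carrier with marked preference for IGF2 (ENSG00000167779.7, chromosome 12, 53097445 to 53102340), had higher values with K-975 at 24 h that did not pass the threshold. It was at 155, 143, 133 and 135 FPKM with vehicle and at 194, 168, 168, 184 and 195 FPKM with 200 mg/kg. All 5 treated tumors lay above all vehicle tumors and above the 5 untreated tumors, which had 124 to 165 FPKM. The log2 difference was 0.36 (SE 0.13, limma adjusted p = 0.0793). Under quantile normalization it was 0.42 (adjusted p = 0.0457), and in a fit of the 2 groups alone 0.36 (adjusted p = 0.0396). For scale, cage groups of the same dose at 3-6 h differed in IGFBP6 by 0.33 (SE 0.12) at 200 mg/kg, 0.095 (SE 0.12) at 100 mg/kg, 0.26 (SE 0.12) at 30 mg/kg and 0.01 (SE 0.12) with vehicle, and at 24 h each group is 1 cage group. At 100 mg/kg IGFBP6 was at 202, 195, 169.9 and 173 FPKM (0.38, adjusted p = 0.168). At 30 mg/kg it was at 207, 208, 169 and 128 FPKM (0.30, adjusted p = 0.443), and the last tumor lay below all vehicle tumors. With their shallow libraries these differences turned to -0.056 and -1.19.

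IGF1R (ENSG00000140443.13, chromosome 15, 98648971 to 98964530) sat at 145, 148, 149 and 159 FPKM with vehicle at 24 h. With 200 mg/kg it was at 187, 165, 182, 146 and 190.5 FPKM, with 4 of 5 tumors above all vehicle tumors. The log2 difference was 0.20 (SE 0.10, limma adjusted p = 0.202). At 100 mg/kg the difference was 0.33 (SE 0.10, adjusted p = 0.0859), and 0.44 (adjusted p = 0.0121) without replicate 4, the 1 tumor of that group among the vehicle values. With all 94 libraries it was 0.0082 (adjusted p = 1). At 30 mg/kg all 4 tumors, at 165 to 202 FPKM, lay above vehicle, with a difference of 0.26 (adjusted p = 0.368) that turned to -1.24 with the shallow library.

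The other 3 members gave no call at 24 h. IGFBP4, a carrier cut by the protease PAPPA (ENSG00000141753.6, chromosome 17, 40443461 to 40457731), averaged 199 ± 8.41 FPKM (SD, n = 4) in vehicle tumors and 194 ± 35.8 FPKM (SD, n = 5) at the highest dose. Its log2 difference was -0.05, with a 95% interval from -0.25 to 0.14 (limma adjusted p = 0.805). With all 94 libraries IGFBP4 was called at 30 mg/kg (-1.56, adjusted p = 0.0418), where its shallow library is listed at 0. IGFBP2 (ENSG00000115457.9, chromosome 2, 216632828 to 216664436) had 7.17 ± 0.985 FPKM (SD, n = 4) and 9.94 ± 3.88 FPKM (SD, n = 5), a difference of 0.35 with an interval from -0.27 to 0.98 (limma adjusted p = 0.554). IGFBP7 (ENSG00000163453.11, chromosome 4, 57030773 to 57110385), which is in the study's list of genes raised by YAP1 and TEAD in other datasets, had 9.96 ± 1.78 FPKM (SD, n = 4) and 11.5 ± 7.24 FPKM (SD, n = 5). Its difference was 0.01 with an interval from -0.86 to 0.88 (limma adjusted p = 0.996).

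**Figure D3:**
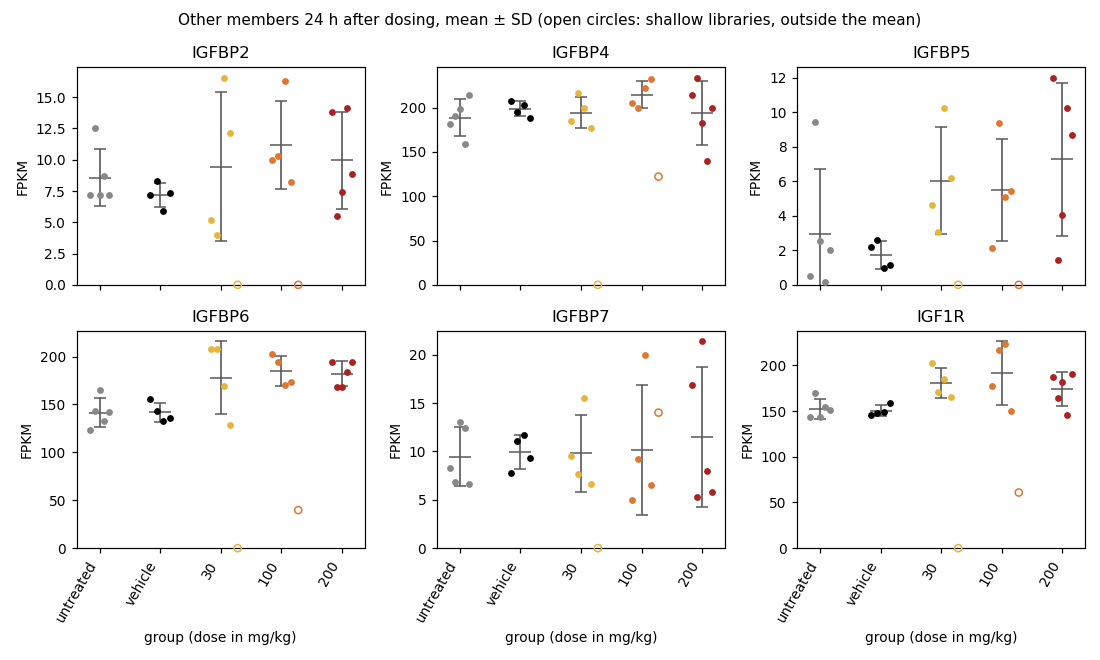
FPKM of the 6 other members in each tumor of the 24 h study by group, with the mean ± SD of the libraries of the fit and the shallow libraries as open circles. IGFBP6 sits at 133 to 155 FPKM with vehicle and 168 to 195 FPKM with 200 mg/kg, IGFBP5 lies above vehicle in 4 of 5 tumors at that dose, and IGFBP4 and IGFBP7 overlap vehicle at each dose.

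The remaining genes of the IGF axis were read as lists for 200 mg/kg at 24 h. The median difference of all genes tested was 0.04, and 7.39% of them were called. Of 3 ligands, IGF1 and INS were listed at 0 in all 91 libraries and IGF2 was tested and not called (median 1.90 FPKM, difference 0.29). Of 3 further receptors, IGF2R, which clears IGF2 (33.3 FPKM, difference 0.25), and INSR, the insulin receptor (6.35 FPKM, difference 0.41), were tested and 0 called. IGFBP1 and IGFALS, the other binding partners, did not pass the filter. Among 5 tested of 6 receptor substrates and adaptors, 0 were called at 200 mg/kg. IRS2, a substrate that links the receptors to PI3K, was lower at 100 mg/kg (-0.58, SE 0.16, limma adjusted p = 0.0458) and not called in 6 of 8 fits that left out 1 tumor. In the PI3K, AKT and FOXO list of 15 genes, the transcription factor FOXO4 rose by 0.89 (SE 0.27, limma adjusted p = 0.0287), and it lost its call in 4 of 9 fits without 1 tumor.

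Of 8 IGFBP proteases and their inhibitors, 7 were tested and 1 was called, against 7.39% of the genes tested. This was ADAM12, a metalloprotease that cuts IGFBP3 and IGFBP5, which fell. It averaged 74.9 ± 12.7 FPKM (SD, n = 4) in vehicle tumors and 37.9 ± 15.3 FPKM (SD, n = 5) at the highest dose, a log2 difference of -1.03 (SE 0.28, limma adjusted p = 0.013), and lost its call without vehicle replicate 1 or 200 mg/kg replicate 1. For scale, ADAM12 averaged 32.8 FPKM in vehicle cage group 2 and 65.8 FPKM in vehicle cage group 3 at 3-6 h. At 24 h each group is 1 cage group. PAPPA, the protease of IGFBP4, was at 189 ± 7.26 FPKM (SD, n = 4) and 180 ± 14.9 FPKM (SD, n = 5), with a difference of -0.07.

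Of 12 other proteins with an IGF-binding domain, 6 were tested and 3 were called, all lower, at 200 mg/kg and 24 h. The share called among all genes tested was 7.39%, and the list median was -0.18. CCN2 fell by 1.44 on the log2 scale (SE 0.21, limma adjusted p = 2.1e-06), CCN1 by 1.26 (SE 0.20, adjusted p = 1.2e-05) and CRIM1 by 0.28 (SE 0.07, adjusted p = 0.0106). In the 9 fits without 1 tumor CCN1 and CCN2 kept their calls. CRIM1 was called in 8 of them and lost its call without vehicle replicate 4 (limma adjusted p = 0.0776). CCN1 and CCN2, matricellular proteins, are themselves standard TEAD targets. Both were also called at 3-6 h at 100 and 200 mg/kg, where IGFBP3 was not. At 200 mg/kg the differences were -0.72 (adjusted p = 0.0022) for CCN1 and -0.63 (adjusted p = 0.0337) for CCN2, against -0.17 for IGFBP3. Among 20 fits without 1 tumor, CCN1 was called in 20 and CCN2 in 8 at that dose and time. These calls of genes outside the members were not made in the fit with all 94 libraries.

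Marker lists of human genes were read in these tumors of human cells grown in mice. All 9 mesothelial and epithelial markers were tested, with CALB2 at a median of 612 FPKM and MSLN at 255 FPKM, and 3 rose at 200 mg/kg and 24 h: MSLN by 0.40, KRT19 by 0.32 and CALB2 by 0.39 (limma adjusted p = 0.0415, 0.0314 and 0.0197). The median of the 9 was -0.027, against 0.04 over all genes tested, of which 7.39% were called. The 3 calls held in 2, 3 and 5 of 9 fits without 1 tumor. The summed level of this list was 2575 to 2676 FPKM with vehicle and 2870 to 3359 FPKM with 200 mg/kg, with no overlap while IGFBP3 fell, but 2395 to 3254 FPKM in untreated tumors, and its part in the result was not tested. For fibroblast markers 0 of 7 were called, with sums of 1005 to 1205 FPKM against 890 to 1574 FPKM, most of it COL1A1 and COL3A1, and DCN, LUM and PDGFRA had medians under 1 FPKM. Endothelial markers (3 of 7 tested, 0 called) summed to 31.0 to 67.9 against 27.1 to 92.5 FPKM, with PECAM1, CLDN5 and ERG at a median of 0. Leukocyte markers (5 of 7 tested, 0 called) summed to 148 to 227 against 130.4 to 209.9 FPKM, most of it CD68, with the T cell marker CD3E at a median of 0. Muscle and fat markers (0 of 5 tested) summed to less than 1 FPKM in both groups. In bulk tumors fewer cells of a type and less RNA per cell cannot be told apart, and how reads of mouse cells were treated is not given in the sources used here. Fibroblasts, vessels and leukocytes of the host are mouse cells, so these lists of human genes cannot show whether they changed.

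To see which genes resembled each member, Pearson's r was computed on log2(FPKM + 1) centred within each study over the 91 tumors, as a description. These tumors share treatments, so r was also taken over the 34 vehicle and untreated tumors. The genes most like IGFBP3 were LOXL2, a lysyl oxidase of the matrix (r = 0.91), and MYO10, a motor of filopodia (r = 0.87). Over the control tumors alone these were 0.87 and 0.89. Both were lower at 200 mg/kg and 24 h, with differences of -0.66 (LOXL2) and -0.78 (MYO10) on the log2 scale (limma adjusted p = 0.0011 and 0.0472). IGFBP3 followed CCN1 with r = 0.59 (0.52 over control tumors) and CCN2 with r = 0.50, which was 0.10 over control tumors. With CRIM1 it had r = -0.08, and -0.50 over control tumors.

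For the other members r was lower. It was highest with SLC16A5 (0.76) for IGFBP5, LAMA3 (0.70) for IGFBP2, COL1A1 (0.67) for IGFBP7, FAM83A (0.64) for IGFBP4, ADAMTS2 (0.64) for IGFBP6 and SVEP1 (0.61) for IGF1R. The next genes were TMEM98 (0.75) and MMP15 (0.74) for IGFBP5, S100A4 (0.67) and SLIT3 (0.65) for IGFBP2, and SULT1E1 (0.63) and PMEPA1 (0.62) for IGFBP7. They were TFRC (0.63) and KRT8 (0.63) for IGFBP4, PCDHGB6 (0.63) and CD81 (0.62) for IGFBP6, and SELENBP1 (0.60) and CDH11 (0.59) for IGF1R. Over control tumors r with IGF1R was only 0.35 for SELENBP1 and 0.32 for CDH11. Both genes were higher at 200 mg/kg and 24 h (limma adjusted p = 0.00073 and 5.2e-05). The other genes of this paragraph had 0.48 (TFRC) to 0.80 (TMEM98) with their member over control tumors. COL1A1 correlated with IGFBP7 at 0.75 over control tumors, and with IGFBP2 (0.60) and IGFBP5 (0.58) over the 91.

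Between members, IGFBP2 and IGFBP5 had the highest r, 0.53. They are neighbours on chromosome 2 that run toward each other with 7668 bases between them. IGFBP3 had negative r with IGFBP5 (-0.46), IGFBP6 (-0.46), IGF1R (-0.42) and IGFBP2 (-0.39), and 0.10 with IGFBP4. IGFBP4 and IGFBP7 had -0.38, and IGFBP6 and IGF1R 0.38. Among the 21 pairs, r lay between -0.46 and 0.53. These r are over the 91 tumors, so differences between treatments enter them. For pairs of members r was not taken over the control tumors alone.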

How the data were processed

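Tumor RNA was stored in RNAlater, extracted with miRNeasy, made into libraries with KAPA RNA HyperPrep, enriched by KAPA HyperCap probes and sequenced in pairs on an Illumina NextSeq. The submitters' processing notes name STAR and GRCh38. The quantifier, its annotation and the treatment of mouse reads are not given in the sources used here. The values are FPKM per gene and tumor as deposited by the authors, with no counts, so depth is unknown.

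Of 20555 table entries, 316 repeats of a gene's ID were dropped, giving 20239 genes, and 32 blank cells in 21 genes were read as 0. Groups came from the labels. Genes that reached an FPKM of 1 in 4 or more libraries entered limma 3.58.1 (R 4.3.3) on log2(FPKM + 1), with 1 coefficient per group and empirical Bayes moderation with trend and robust settings. Two-sided p-values received the Benjamini-Hochberg adjustment across all genes, with a threshold of 0.05. The 3 libraries with fewer than 10000 genes at an FPKM of at least 1 were left out. That choice was made because earlier results of these data had shown that they inflate the spread shared by all groups. The script was tested on simulated data. The 7 members were named in each comparison, genes of the fixed IGF axis lists where called in any comparison of a dose with vehicle, CCN1, CCN2 and CRIM1 as IGF-binding-domain proteins, and the 3 genes of highest r with each member. A few genes that this rule or the marker lists take in are not reported here. Genes named for their lack of reads, high level or role (such as PAPPA) and the marker genes were chosen after values were seen or belong to the marker lists. The members, lists and tests were chosen with earlier results of these data known. Alternatives were all 94 libraries, a pseudocount of 0.1, no filter, quantile normalization, the compared groups alone, untreated controls, single vehicle cage groups, dose ranks and leaving out each tumor. The comparison of the 30 mg/kg cage groups was added after seeing the data. Promoter sequences are RefSeq entries, found for 6 of the 7 members. Figures were drawn with matplotlib 3.10.9.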

Additional observations from a re-analysis of the deposited data

Results flagged for a closer look

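Among 133 sets of values (a member in a group), 11 held a tumor set apart from the rest of its group by Dixon's criterion at the 95% level, where chance gives about 1 in 20. IGFBP5 accounted for 4 of them: 14.2 FPKM in untreated replicate 1 at 1 h (next 4.49), 9.51 FPKM in replicate 5 of 200 mg/kg at 1 h (next 5.11), 14.5 FPKM in untreated replicate 3 at 3-6 h (next 4.54) and 9.44 FPKM in untreated replicate 2 at 24 h (next 2.51). That last tumor was also apart for IGFBP2, at 12.5 FPKM (next 8.67). IGFBP3 was apart on the low side in vehicle replicate 1 at 1 h, at 64.7 FPKM (next 143). IGF1R was apart at 1 h in vehicle replicate 4, at 186 FPKM (next 149), and in replicate 5 of 200 mg/kg, at 182 FPKM (next 154). IGFBP4 was apart in replicate 5 of vehicle cage group 2 at 3-6 h, at 234 FPKM (next 176). IGFBP6 was apart at 3-6 h in replicate 4 of 200 mg/kg cage group 5, at 202 FPKM (next 156), and in replicate 5 of 100 mg/kg cage group 7, at 192 FPKM (next 139).

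The effect of 200 mg/kg on IGFBP3 differed between the 24 h and 3-6 h studies by -1.63 on the log2 scale in a test of the difference itself (limma adjusted p = 0.0177).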

How the results depend on the processing

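No paired analysis was possible because the labels carry no replicate numbers that pair tumors across groups. The fold of IGFBP3 at 200 mg/kg and 24 h kept its direction and its call in the 9 fits without 1 tumor (-2.05 to -1.56).

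With all 94 libraries the number of members called was 2 at 30 mg/kg and 24 h (0 in the reported fit), 0 at 200 mg/kg and 24 h (1), 0 for the dose trend (1) and 0 for the effect at 24 h minus 3-6 h (1). In that fit the genes called at 200 mg/kg and 24 h went from 963 to 0 and those at 30 mg/kg from 5 to 2930. With the compared groups alone it was 1 at 30 mg/kg and 2 at 200 mg/kg at 24 h, where 323 genes were called. Quantile normalization gave 2 at 200 mg/kg and 24 h, untreated controls 1 at 100 mg/kg and 24 h (0), and vehicle cage group 3 alone 1 at 30 mg/kg and 3-6 h (0). Without 1 tumor the counts at 24 h were 0 to 2 at 100 mg/kg and 1 to 2 at 200 mg/kg, and 0 to 1 for each difference of effects between studies. The cause was not tested.

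Directions turned as follows. With all 94 libraries IGFBP6 was -1.19 at 30 mg/kg and -0.056 at 100 mg/kg, and IGF1R -1.24 at 30 mg/kg, all at 24 h, where shallow libraries enter. With untreated controls IGFBP3 at 200 mg/kg was 0.021 at 1 h and 0.14 at 3-6 h. With vehicle cage group 2 alone IGFBP3 at 3-6 h was 0.047 at 100 mg/kg and 0.28 at 200 mg/kg. At 200 mg/kg and 24 h IGFBP4 was 0.022 with quantile normalization and 0.025 with untreated controls, and IGFBP7 was -0.0059 with the pseudocount of 0.1 and -0.029 with quantile normalization. Without 1 tumor IGFBP3 at 30 mg/kg and 1 h was -0.21 to 0.17, IGFBP4 at 200 mg/kg and 24 h -0.13 to 0.058 and IGFBP7 there -0.25 to 0.21. Among 40 single-gene results, 406 refits without 1 tumor kept both direction and side of the threshold, 50 lost a call, 5 gained one and 8 turned direction. Under the other alternatives these were 188, 40, 6 and 11.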
